A study of Arabidopsis thaliana with 42 samples.

Results

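The genes described here are encoded in the mitochondrial genome of Arabidopsis thaliana and were measured in roots and shoots under 3 zinc supplies. They were chosen as the probe sets that the platform annotation pairs with 1 gene, where that gene is mitochondrial rather than a nuclear locus and its symbol begins with nad, cox, cob, ccb, ccm, mat or orf. 23 probe sets met that description, of 22746 tested and of 13513 paired with 1 gene. They stand for 16 genes, of 13350 that have a probe set paired with them alone, because nad1 has 7 probe sets and nad5 has 2. All 16 names were found among the mitochondrial symbols or synonyms of the RefSeq gene table. No probe set paired with a cob or ccm symbol alone was found, and the chloroplast gene matK, whose symbol begins alike, was left out.

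The arrays compared wild type Col-0 with bzip19 bzip23, a T-DNA insertion double mutant that lacks a pair of transcription factors of the zinc deficiency response. Plants grew in hydroponics on a modified half-strength Hoagland solution for 3 weeks at 2 µM ZnSO4, called normal zinc. They then had 1 week at low zinc (0.05 µM), normal zinc (2 µM) or excess zinc (25 µM), and were 4 weeks old at harvest. Roots or shoots of 6 plants from 2 containers were pooled for each genotype and treatment. Each genotype and supply had 4 root arrays and 3 shoot arrays, 42 in 12 groups. The labels do not say that replicates came from separate cultures, so p-values measure the spread between these samples, which may be technical. Values are those deposited by the authors, 1 log2 value per probe set from RMA (robust multi-array average, which corrects background and makes the arrays' distributions alike). The number of arrays limits the precision. A difference was called when limma gave it a p-value under 0.05 after Benjamini-Hochberg adjustment across all 22746 probe sets.

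Plant mitochondria keep a small genome that encodes core subunits of the respiratory chain, part of the machinery that attaches haem to cytochrome c, and some ribosomal and other proteins. Most subunits of the same complexes are encoded in the nucleus and imported, so that each complex needs both genomes. The nad genes encode subunits of NADH dehydrogenase (complex I), which feeds electrons into the chain, and the cox genes encode subunits of cytochrome c oxidase (complex IV), which passes them to oxygen. The ccb genes encode parts of the cytochrome c maturation pathway: ccb382 and ccb203 are the ccmFN1 and ccmFN2 genes of the RefSeq table, ccb206 is ccmB and ccb452 is ccmFC. matR encodes a maturase, a protein that helps to splice introns, and lies within an intron of nad1. orfX is mttB, a gene related to the tatC family of protein translocases. Transcripts of nad1, nad2 and nad5 are joined from separately transcribed pieces by trans-splicing.

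Some features of the assay bear on every value below. Plant mitochondrial transcripts mostly lack a stable poly(A) tail, a short tail there marks a transcript for decay, and the one-cycle labelling kit used here starts cDNA from an oligo(dT) primer. Chromosome 2 of Col-0 also carries a large, nearly identical insertion of mitochondrial DNA; whether the probes of the 23 probe sets also match that insertion was not checked. 5 of the 23 probe sets carry a suffix that marks probes shared by several transcripts (matR, orfX, ccb452, nad6 and nad5 probe set b). Fewer mitochondria per cell and less RNA per mitochondrion cannot be told apart in these bulk samples.

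The labels were checked first. Group means of bZIP19 ran from 8.70 to 9.88 (log2) in wild type and from 4.46 to 4.92 in the mutant. The upper end of the mutant range was taken as a level near background; 17.7% of the tested probe sets had a 42-array mean under it. The root marker PYK10 lay at 12.2 to 13.4 in root arrays and 5.75 to 7.64 in shoot arrays, and the photosystem I subunit PSAN at 5.11 to 8.12 and 12.8 to 13.4. The array file names carry dates: root arrays at low zinc have a date of their own, root arrays at normal and excess zinc share another, shoot arrays at low and normal zinc share another and shoot arrays at excess zinc have their own. Low against normal zinc in roots, excess against normal zinc in shoots, and every comparison of tissues therefore cannot be told apart from the date. The comparisons of genotypes lie within a date.

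One array stood apart in these genes. In replicate 2 of the mutant roots at excess zinc, all 23 probe sets lay above their group mean, by 0.30 on average, and the median of the 23 was 6.04 against 5.47 to 5.58 in the other 3 arrays of that group. The 69 probe sets of chloroplast-encoded genes lay 0.35 above their group mean on that array, and 11 probe sets that the annotation shares between a mitochondrial gene and a chromosome 2 locus lay 0.31 above theirs. Replicate 2 of the wild-type roots at excess zinc and replicate 1 of the wild-type shoots at low zinc also correlated less with their groups than the other arrays did, with a mean r of 0.980 each, and the latter had a GAPDH 3′ to 5′ control difference of 3.72 against a median of 0.59 over the shoot arrays. Values without these arrays stand beside the results they moved most.

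**Figure D1:**
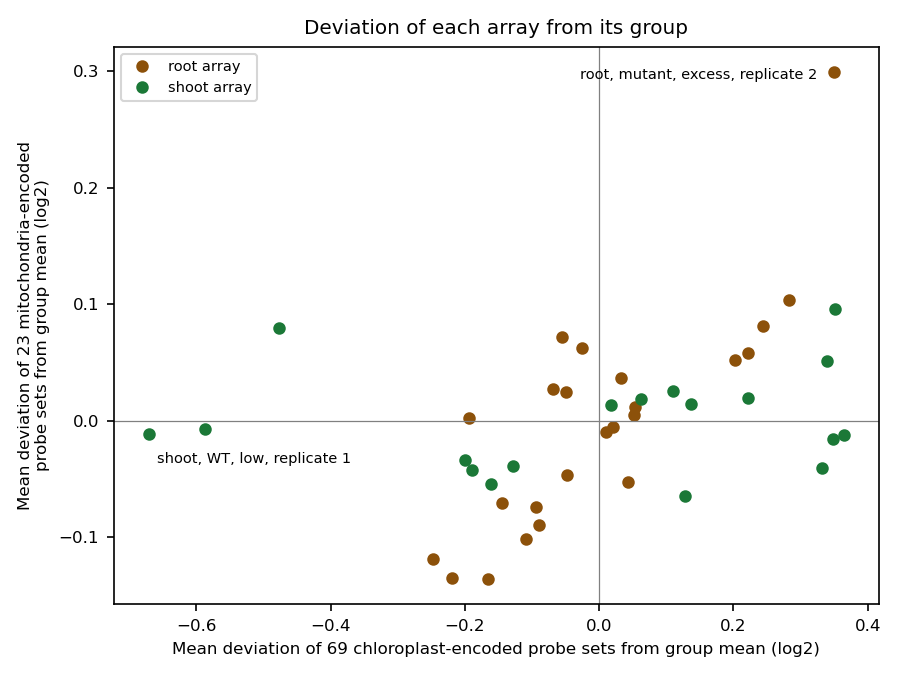
Each point is 1 of the 42 arrays: its mean deviation from the group mean over 69 chloroplast-encoded probe sets (horizontal, log2) and over the 23 mitochondria-encoded probe sets (vertical, log2), with roots and shoots in different colours. Replicate 2 of the mutant roots at excess zinc lies highest, at 0.30, and replicate 1 of the wild-type shoots at low zinc lies farthest left, at -0.67 for the chloroplast genes.

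The mitochondria-encoded probe sets gave low to middling signals. 21 of 23 had a 42-array mean under that of the median probe set, 7.02 on the log2 scale, and 2 lay above it, ccb382 at 8.26 and nad4 at 7.09. These are the signals of different probes, so their order says nothing about which transcript is more abundant. nad1 probe set c, nad2 and nad5 probe set a were at or under the near-background level in all 12 groups, with 42-array means of 3.82, 4.67 and 4.58. nad6 was at or under it in 8 groups and nad1 probe set f in 1, and the other 18 probe sets were above it in every group. 10 of 23 reached a mean of 6 in at least 1 group.

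**Figure D2:**
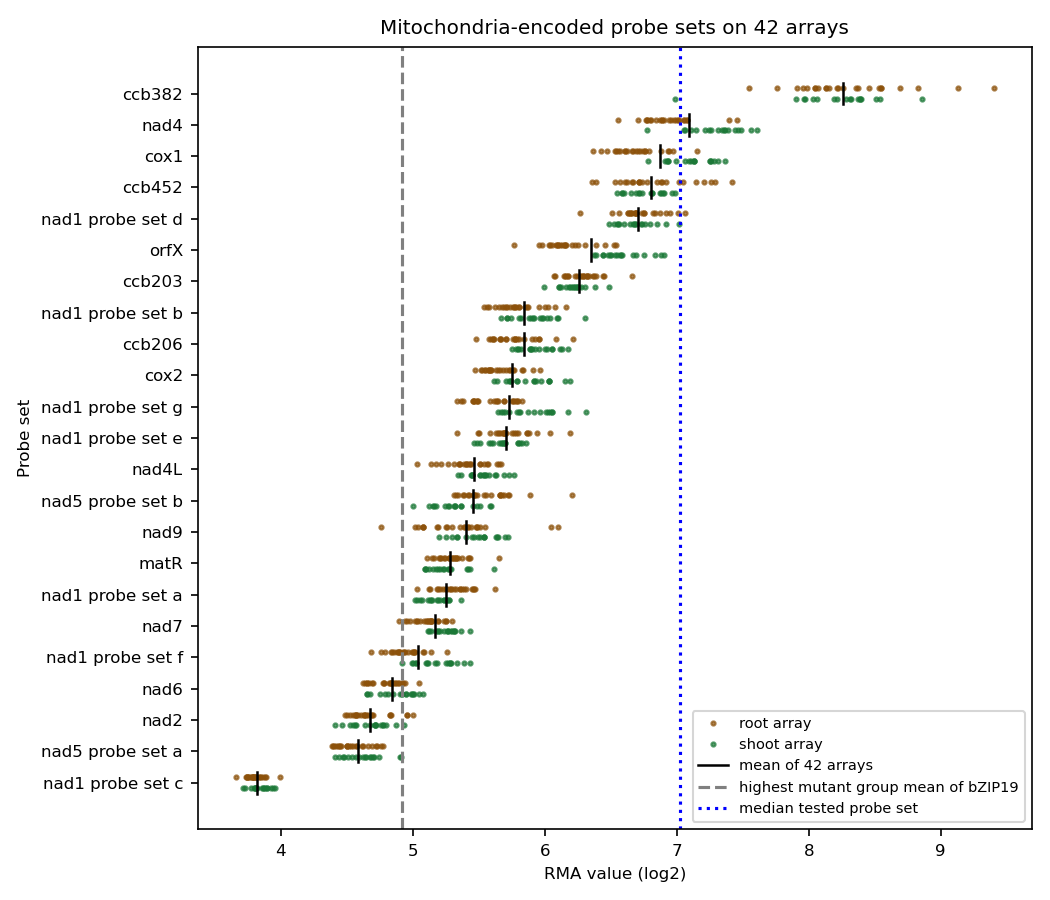
RMA values (log2, horizontal) of the 23 probe sets on every array, with root arrays and shoot arrays as points in different colours and a black bar at the mean of 42 arrays. The dashed line marks the highest mutant group mean of bZIP19 (4.92) and the dotted line the median tested probe set (7.02); 3 probe sets stay left of the dashed line in all 12 groups.

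Their levels moved little between groups. The difference between the highest and the lowest of the 12 group means ran from 0.14 (nad1 probe set c) to 0.71 (orfX), with a median of 0.40 against 0.71 for all tested probe sets and 3.42 for the chloroplast-encoded ones. The spread between replicates was not smaller than elsewhere: the pooled SD within groups had a median of 0.15 for the 23 probe sets, 0.15 for all tested probe sets and 0.45 for the chloroplast-encoded ones. Within the set, ccb382 was the most variable among replicates, with a pooled SD of 0.39, and nad1 probe set c, near background, the least, with 0.06.

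The first question was whether zinc supply or the loss of both transcription factors moved these genes within a tissue. In 17 of the 18 zinc, genotype and interaction comparisons no mitochondria-encoded probe set was called. The exception was ccb452 (244951_s_at), the cytochrome c maturation gene also named ccmFC, which was higher in wild-type roots at excess zinc than at normal zinc. The 14 comparisons other than interactions give 322 differences for the 23 probe sets, from -0.36 to 0.52 on the log2 scale. Of these, 11 (3.42%) had an unadjusted p under 0.05 by limma, in 8 probe sets. Among all 22746 tested probe sets, 1479 to 5020 had one in each of these comparisons. In every one that is a larger share than the 3.42% pooled over the 23 probe sets, and the gap was not tested.

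In wild-type roots, ccb452 read 6.89, 6.72, 6.88 and 6.39 in the 4 arrays at normal zinc and 7.05, 7.20, 7.42 and 7.29 at excess zinc. The groups did not overlap, and every excess array lay above every normal array. The difference was 0.52 (SE 0.14, n = 4 each, 1.44-fold, adjusted p = 0.0208 by limma). In that comparison 1 of 23 probe sets was called, beside 9.7% of all tested probe sets. The call was lost when the fit held only these groups, without replicate 4 at normal zinc (0.41) and without replicate 3 at excess zinc (0.46). Both markers of photosynthetic tissue that were measured fell in the same comparison, PSAN by 1.30 (adjusted p = 0.0112) and CHLM, an enzyme of chlorophyll synthesis, by 0.61 (adjusted p = 0.0220), and their part in the result was not tested.

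In the mutant, ccb452 read 6.72, 6.60, 6.67 and 6.36 in roots at normal zinc and 6.77, 7.26, 6.85 and 6.62 at excess zinc, the highest being the array that stood apart. The groups overlapped, and the difference of 0.29 was not called (SE 0.14, adjusted p = 0.296 by limma), among 0 of 23 probe sets called beside 5.07% of all. Without the array that stood apart the difference was 0.16 (SE 0.14, adjusted p = 0.613), and the median over the 23 in this comparison went from 0.10 to -0.03. The mutant lay below wild type at excess zinc by 0.36 (SE 0.14, adjusted p = 0.195), again with 0 of 23 called, beside 1.48%. Without that array the mutant lay 0.49 below wild type (adjusted p = 0.106, not called), and the median over the 23 went from -0.03 to -0.10. The genotype by excess zinc interaction of ccb452 was -0.23 (SE 0.20, adjusted p = 0.821), or -0.36 without the array (adjusted p = 0.618), so a difference between the genotypes' responses was not shown. That interaction called 0 of 23, beside 0.0132%.

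In shoots the response of ccb452 was not called. Wild-type shoots read 6.99, 6.81 and 6.65 at normal zinc and 6.71, 6.60 and 6.69 at excess zinc. The difference was -0.15 (SE 0.12, n = 3 each, adjusted p = 0.766 by limma). The tissue by excess zinc interaction in wild type, which sets the root response against the shoot response, was 0.67 (SE 0.20, adjusted p = 0.0420 by limma). The root arrays at normal and excess zinc share a date and the shoot arrays do not, so this interaction cannot be told apart from the date in shoots. ccb452 was the 1 probe set of 23 called there, beside 4.61% of all, and the call was lost when the actin 3′ to 5′ difference was added as a covariate and without each of 9 arrays in turn.

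**Figure D3:**
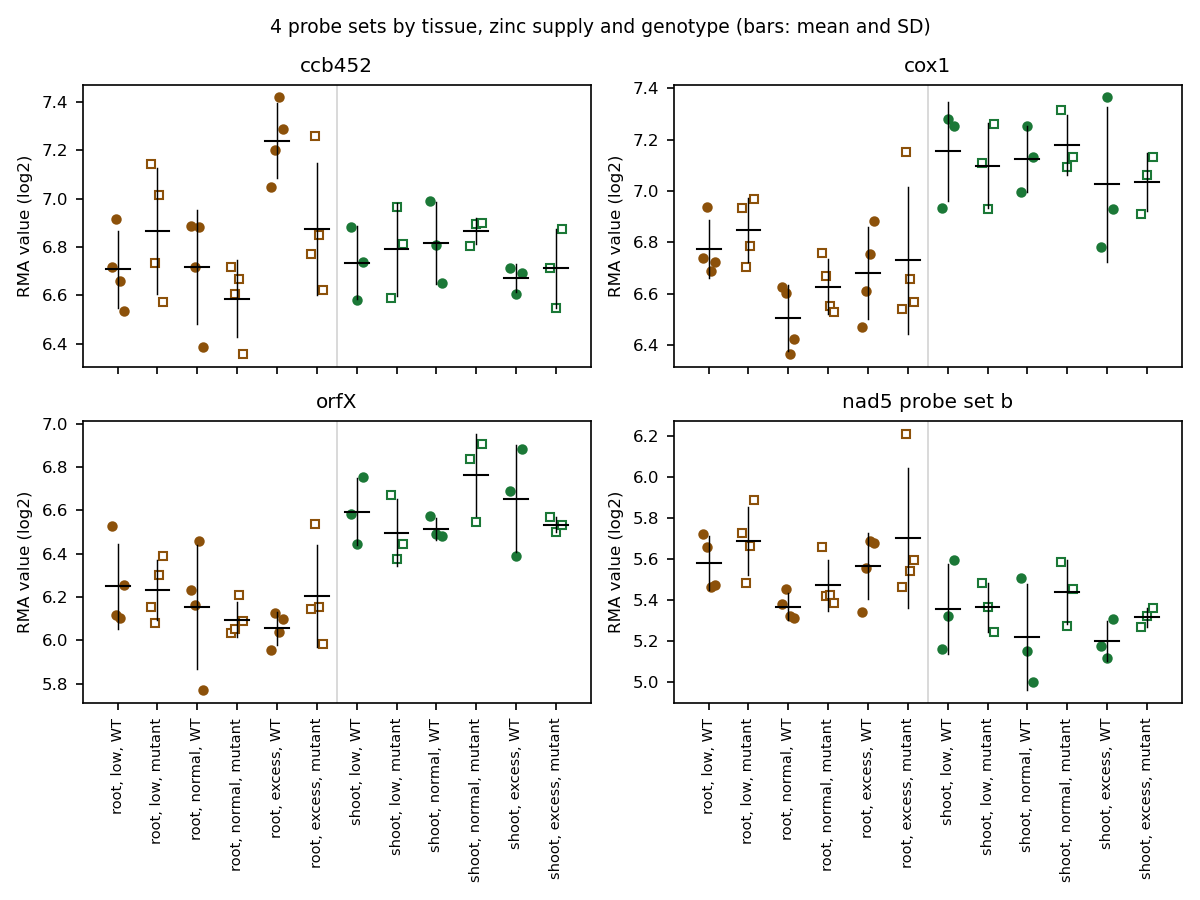
RMA values (log2) of ccb452, cox1, orfX and nad5 probe set b in each of the 12 groups, with filled circles for wild type, open squares for the mutant, and black bars for the group mean and SD (n = 4 in roots, n = 3 in shoots). ccb452 is highest in wild-type roots at excess zinc (mean 7.24), cox1 and orfX sit lower in roots than in shoots, and 1 open square stands high among the mutant roots at excess zinc in each panel.

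The other cytochrome c maturation genes were not called in any comparison of zinc or genotype. The largest of these differences was in ccb382 (244912_at), which varied most between replicates. At normal zinc, wild-type roots read 7.99, 8.05, 7.91 and 7.55 and mutant roots 8.45, 8.54, 8.37 and 8.22. Although the groups did not overlap, the difference of 0.52 had an SE of 0.25 and an adjusted p of 0.433 (limma). That test did not pair same-numbered arrays, whose deviations over all probe sets correlated by 0.20 to 0.50 between these groups. At low zinc the genotypes overlapped in roots, with 8.13, 8.07, 8.26 and 8.13 in wild type and 9.13, 8.36, 7.76 and 8.69 in the mutant. ccb203 and ccb206 differed by less: in roots, ccb206 was 0.19 below wild type in the mutant at normal zinc (adjusted p = 0.561), and ccb203 was 0.18 below it at excess zinc (adjusted p = 0.329).

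Among the 15 probe sets of the 8 complex I genes, none was called for zinc or genotype. The largest difference was in nad9 (244943_at), which read 5.36, 5.04, 5.08 and 5.30 in mutant roots at normal zinc and 6.10, 5.42, 5.51 and 5.48 at low zinc. The groups did not overlap, and the difference of 0.43 (SE 0.18) had an adjusted p of 0.607 by limma; replicate 1 at low zinc lay far above the other 3. In wild-type shoots nad9 differed by 0.23 between excess and normal zinc (adjusted p = 0.493), and in shoots at normal zinc it was 0.29 higher in the mutant (adjusted p = 0.539). The genotype by excess zinc interaction of nad9 in shoots was -0.43 (SE 0.15, unadjusted p = 0.0118 and adjusted p = 0.551 by limma). At excess zinc in wild-type roots, where ccb452 was called, nad4L was 0.23 and nad1 probe set e 0.25 above normal zinc, with unadjusted p-values of 0.0390 and 0.0361 and neither called. nad2, near background throughout, and nad6 had unadjusted p-values under 0.05 in 1 comparison each without being called: the shoot interaction at excess zinc for nad2 (0.34, adjusted p = 0.574) and mutant shoots at low against normal zinc for nad6 (-0.24, adjusted p = 0.596).

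The complex IV gene cox1 (257333_at) came nearest to a difference at low zinc in wild-type roots. It read 6.74, 6.94, 6.69 and 6.72 at low zinc and 6.63, 6.61, 6.37 and 6.42 at normal zinc. The groups did not overlap, but the difference of 0.27 (SE 0.11) had an adjusted p of 0.482 by limma. Low and normal zinc in roots also lie on arrays of different dates. cox2 (244950_at), the other complex IV gene, ran from -0.17 to 0.09 over the 14 zinc and genotype comparisons, and matR (244926_s_at) from -0.12 to 0.13. orfX (244928_s_at) was 0.27 lower in mutant shoots at low than at normal zinc (SE 0.13, unadjusted p = 0.0477 and adjusted p = 0.658 by limma), with overlapping groups.

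These counts of 0 of 23 stand beside small counts over all probe sets in most comparisons. In roots, 0.132% of tested probe sets were called for low against normal zinc in wild type and 0.0484% in the mutant. The mutant differed from wild type in 0.0835% of probe sets at low zinc and 0.0572% at normal zinc, and the genotype by low zinc interaction called 0.0176%. In shoots, low against normal zinc called 0.703% in wild type and 0.0659% in the mutant, and excess against normal zinc 0.62% in wild type. The genotypes differed in shoots in 0.022% at normal zinc and 0.0308% at excess zinc, and the shoot interactions called 0.0132% at low zinc and 0.0% at excess zinc. For the tissue by low zinc interaction in wild type, 0 of 23 were called, beside 0.404%. In these comparisons the background leaves little room for a call in a set of 23.

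In a few comparisons the background was larger. In shoots at low zinc, where 5.88% of probe sets differed between the genotypes, 0 of 23 were called, and the differences had a median of -0.01 and ran from -0.22 to 0.38. In mutant shoots at excess against normal zinc, where 3.2% were called, again 0 of 23 were, with a median of -0.11 and a range of -0.36 to 0.13. In wild-type roots at excess zinc, where the background was largest, the median over the 23 was 0.09.

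A missing call does not show that a gene did not change, so the intervals were read as well. Of the 322 zinc and genotype differences within a tissue, 320 had a 95% confidence interval that excluded a 2-fold change in either direction, and 301 one that excluded a 1.5-fold change. Both intervals that reached 2-fold were those of ccb382. The intervals for low against normal zinc in roots and excess against normal zinc in shoots also hold any difference between dates. They therefore do not bound an effect of zinc alone. Intervals of probe sets near background can be narrow whatever the transcript does. Over the 18 probe sets above the near-background level in every group, 250 of 252 intervals excluded 2-fold and 231 excluded 1.5-fold, with a median half-width of 0.24 on the log2 scale.

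**Figure D4:**
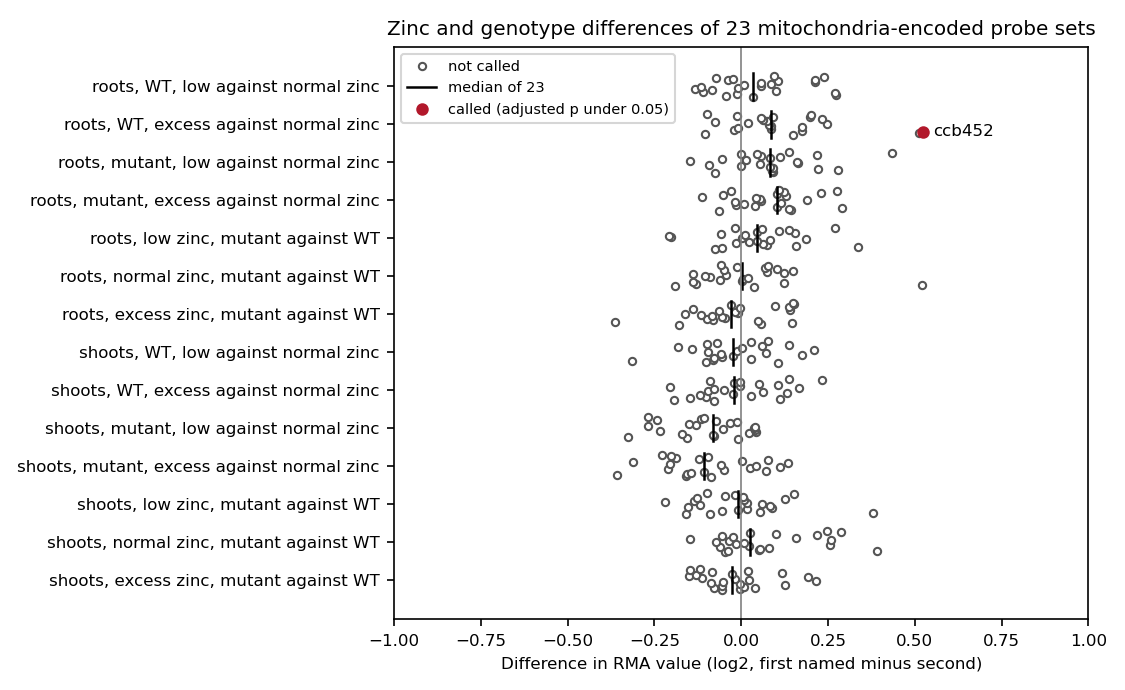
Differences of the 23 probe sets (log2, first named group minus second) in the 14 zinc and genotype comparisons within a tissue, with 1 circle per probe set and a black bar at the median of the 23. All but 1 are open (not called), all lie between -0.36 and 0.52, and the filled point is ccb452 in wild-type roots at excess zinc.

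The second question was how these genes differ between roots and shoots. Here most of the array was called, 58.9% to 64.1% of all tested probe sets. Of the 23 mitochondria-encoded probe sets, 2 to 11 were called, most of them lower in roots. In wild type, 0 were higher and 3 lower in roots at low zinc (62.0% of all probe sets called), 0 and 6 at normal zinc (60.8%), and 3 and 4 at excess zinc (58.9%). In the mutant, 1 was higher and 1 lower at low zinc (62.0%), 0 and 11 at normal zinc (64.1%), and 1 and 2 at excess zinc (59.3%). The medians over the 23 were -0.12, -0.16 and -0.07 in wild type and 0.01, -0.21 and -0.06 in the mutant, in the order low, normal and excess, and those over all probe sets lay between 0.02 and 0.05. The chloroplast-encoded genes, for comparison, were lower in roots in 63 to 69 of 69 probe sets, with medians of -2.35 to -3.17.

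These tissue differences are small enough that the scaling of the arrays matters. When each array was centred on the median of the probe sets named for nuclear genes, every root minus shoot difference moved down by 0.09 to 0.14, and the share of higher calls among all calls went from 55.9% to 58.8% down to 41.8% to 48.0%. Members called higher and lower then numbered 0 and 10, 0 and 11, and 1 and 10 in wild type at low, normal and excess zinc, and 0 and 8, 0 and 14, and 1 and 8 in the mutant. Of all tested probe sets, 61.2% to 71.0% were then called in these comparisons. Those called lower made up 31.8% to 41.4% of all tested probe sets, beside 8 to 14 of the 23. 15 of 23 probe sets were called in at least 1 of the 6 comparisons of the deposited values, 12 lower in roots and 3 higher, none both ways, and 8 in none. On the same basis 82.8% of all tested probe sets were called at least once, 38.1% lower and 46.2% higher. All 12 were called lower at least once under both scalings, and of the 3 called higher, 2 were. 10 of 23 were below 0 in all 6 comparisons under both scalings. Because centring moved every difference down, one below 0 as deposited stayed below 0. Agreement between the scalings is therefore no check of the lower direction, here or for the single genes below. Of all tested probe sets, 31.3% were below 0 in all 6 as deposited and 43.8% with centred arrays, where 14 of the 23 were.

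cox1, the core subunit of complex IV, was called lower in roots in 5 of 6 comparisons and lay below shoots in all 6, by 0.25 to 0.62. At normal zinc wild-type roots read 6.63, 6.61, 6.37 and 6.42 and shoots 6.99, 7.25 and 7.13, without overlap (-0.62, SE 0.13, 1.54-fold, adjusted p = 8.05e-05 by limma). The mutant at normal zinc gave 6.76, 6.67, 6.55 and 6.53 in roots and 7.31, 7.09 and 7.13 in shoots, again without overlap (-0.55, SE 0.13, adjusted p = 0.000338). At excess zinc the tissues overlapped in both genotypes, and the differences were -0.35 and -0.31. With centred arrays cox1 was called lower in all 6, by 0.38 to 0.75. The other complex IV gene, cox2, was below 0 in all 6 as well, from -0.12 to -0.38, and was called in 1, in the mutant at normal zinc; with centred arrays it was called lower in 5.

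orfX, like cox1, was called lower in roots in 5 of 6 comparisons and below shoots in all 6, by 0.26 to 0.67. In the mutant at normal zinc roots read 6.03, 6.05, 6.21 and 6.09 and shoots 6.84, 6.55 and 6.91, with no overlap (-0.67, SE 0.13, 1.59-fold, adjusted p = 3.02e-05 by limma). In wild type at excess zinc roots read 5.95, 6.13, 6.04 and 6.10 and shoots 6.69, 6.39 and 6.88, again with no overlap (-0.60, SE 0.13, adjusted p = 0.000138). The comparison not called was the mutant at low zinc (-0.26, adjusted p = 0.0773). Centred arrays gave calls in all 6, by 0.39 to 0.81.

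In complex I the probe sets did not all go one way. nad4 (244929_at) was called lower in roots in 3 of 6 comparisons and was below 0 in all 6. In the mutant at normal zinc it read 6.98, 6.81, 6.84 and 6.96 in roots and 7.49, 7.24 and 7.61 in shoots, without overlap (-0.55, SE 0.15, 1.46-fold, adjusted p = 0.00235 by limma). nad4L, nad7 and nad9 were called lower in 1 comparison each: nad4L by 0.30 in wild type at normal zinc, nad7 by 0.21 and nad9 by 0.44 in the mutant at normal zinc. nad6 was called lower in both genotypes at normal zinc, at least 1.14-fold in wild type and at least 1.17-fold in the mutant, since its root means of 4.73 and 4.80 lay near background. nad2 was called in none. With centred arrays the number of lower calls rose to 6 for nad7, 5 for nad4, 4 each for nad4L and nad6, and 2 for nad2, and stayed at 1 for nad9.

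The probe sets of nad1 disagreed with each other. Probe set f (257327_at) was called lower in roots in 3 comparisons, most in the mutant at low zinc, where roots read 4.68, 4.79, 4.89 and 4.76 and shoots 5.17, 5.10 and 5.39. The groups did not overlap, and with roots under the near-background level the difference of -0.44 (SE 0.11, adjusted p = 0.000537 by limma) stands for at least 1.35-fold. Probe sets g (257329_at) and b (257322_at) were called lower in 2 each: g at normal zinc in the mutant (-0.53, adjusted p = 0.000339) and at excess zinc in wild type (-0.38), b at low zinc in wild type (-0.35, but -0.19 and not called without shoot replicate 1, which stood apart) and at normal zinc in the mutant (-0.29). Probe sets a (257321_at), c (257323_at), d (257324_at) and e (257325_at) were called in none. With centred arrays probe set c, near background in every group, was called lower in 5, f and g in 5 each and b in 3, and a, d and e in none. Probe set a lay above 0 in all 6, from 0.05 to 0.20, though centred arrays turned 2 of its 6 differences below 0.

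The probe sets of nad5 also differed. Probe set a (257337_at), near background, was called in none, and in 1 (lower) with centred arrays. Probe set b (257338_s_at) was above 0 in all 6 comparisons and called higher in roots in 3: by 0.36 in wild type at excess zinc (SE 0.13, adjusted p = 0.0176 by limma), by 0.32 in the mutant at low zinc (adjusted p = 0.0330) and by 0.38 in the mutant at excess zinc (adjusted p = 0.0122). In wild type at excess zinc it read 5.34, 5.55, 5.69 and 5.68 in roots and 5.18, 5.12 and 5.31 in shoots, without overlap. Of these 3 calls, 1 held with centred arrays, in the mutant at excess zinc (0.30), and that call was lost without the array that stood apart. With centred arrays 1 of the 6 differences fell below 0.

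The cytochrome c maturation genes were likewise divided. ccb452 was called higher in roots in wild type at excess zinc (0.57, SE 0.14, 1.48-fold, adjusted p = 0.000566 by limma), where roots had risen with zinc, and held with centred arrays (0.47). In the other 5 comparisons it ran from -0.28 to 0.16. ccb203 (244919_at) was called higher in wild type at excess zinc (0.23, adjusted p = 0.0265), and not with centred arrays (0.13) or without root replicate 2, which stood apart (0.15). ccb206 (244945_at) was below 0 in all 6 and called lower in 1, in the mutant at normal zinc (-0.37, SE 0.12, adjusted p = 0.00780), and in 2 with centred arrays. Centring also gave ccb452 a lower call in the mutant at normal zinc (-0.42). ccb382 and matR were called in none.

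**Figure D5:**
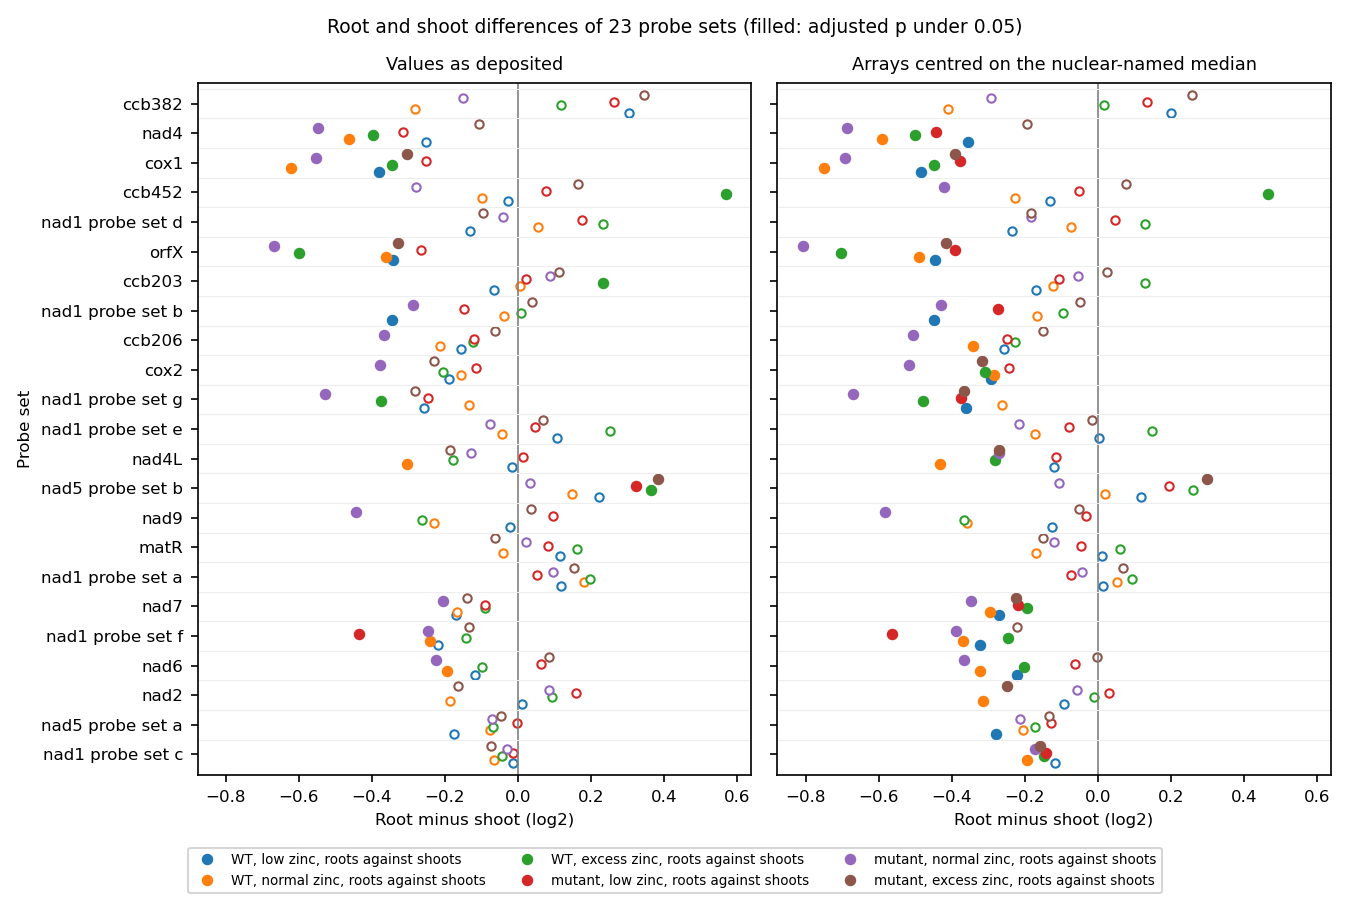
Root minus shoot differences (log2, horizontal) of the 23 probe sets in 6 comparisons, 1 colour each, with filled points for an adjusted p under 0.05 and open points otherwise. The left panel holds the deposited values and the right panel the arrays centred on the median of nuclear-named probe sets. Centring moved every point to the left. cox1 and orfX lie left of 0 in every comparison in both panels. nad5 probe set b and ccb452 hold the only filled points right of 0 that appear in both.

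The count of 3 in the mutant at excess zinc depended on the array that stood apart. Without it, 5 probe sets were called there, all lower in roots (cox1, orfX, nad1 probe set g, cox2 and nad4L), and the median over the 23 went from -0.06 to -0.16. Without all 3 arrays that stood apart, 5 were called in the mutant at low zinc as well, 1 higher and 4 lower, in place of 2. In wild type at low zinc 3 were still called without them, with nad4 in place of nad1 probe set b, and the median over the 23 went from -0.12 to -0.06. In wild type at excess zinc ccb203 was no longer called, which left 2 higher and 4 lower. Without the mutant root array alone, nad1 probe set e was also called higher there (0.25, adjusted p = 0.0439), and without the wild-type root array alone, nad6 lost its call in wild type at normal zinc (adjusted p = 0.0512).

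The RNA quality controls differed between tissues in GAPDH more than in actin. The actin 3′ to 5′ difference ran from 2.57 to 3.30 in roots, with a median of 2.86, and from 2.47 to 3.07 in shoots, with a median of 2.77. The GAPDH one ran from -0.29 to 0.44 in roots, with a median of 0.15, and from 0.23 to 3.72 in shoots, with a median of 0.59. The gap between these GAPDH medians is larger than the median difference of the 23 in each of the 6 comparisons, and its part in them was examined only by adding it as a covariate. With the actin difference as a covariate, no count of calls between tissues moved by more than 1.5 times. With the GAPDH difference as a covariate, the members called higher and lower in roots numbered 0 and 1, 0 and 4, and 4 and 3 in wild type at low, normal and excess zinc, and 0 and 1, 0 and 10, and 1 and 2 in the mutant, beside 58.4% to 65.1% of all probe sets called. The lower calls of nad1 probe set f at normal zinc in both genotypes, nad1 probe set b and orfX in wild type at low zinc, nad6 in wild type at normal zinc and nad1 probe set g in wild type at excess zinc were lost there, as was the higher call of nad5 probe set b in the mutant at low zinc. The calls of cox1 and nad4 were kept in every comparison that had one.

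The 23 probe sets moved together only loosely. Correlations between pairs of them, taken over the deviations of 42 arrays from their group means, had a median r of 0.25 over 253 pairs, with 28 pairs over 0.5. Without the array that stood apart the median was 0.17, with 15 pairs over 0.5. The chloroplast-encoded probe sets gave 0.46. The points share the arrays and their scaling, so these values describe the arrays and are not a test. The closest pairs were ccb452 with nad1 probe set g (0.66), orfX with ccb206 (0.66) and nad4 with nad9 (0.66).

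The probe sets that the annotation shares between a mitochondrial gene and a chromosome 2 locus gave a similar picture. They cover atp9, rps12, cox3, atp1, rpl2, rps7, rps4, rpl5, cob and nad1 (with 2). None of the 11 was called for zinc or genotype within a tissue, beside 0.022% to 9.7% of all tested probe sets. Between tissues 0 or 1 was higher in roots and 1 or 2 lower in each of the 6 comparisons. Of all tested probe sets, 33.5% to 36.2% were called higher there and 24.3% to 27.9% lower. The probe set of atp9, which encodes a ring subunit of ATP synthase, was lower in roots in all 6, by 0.35 to 0.60. Centring moves such differences further down, so it is no check of their direction.

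A few nuclear genes for the same complexes were called within a tissue; their changes were not tested against those of the mitochondria-encoded genes. The listed complex IV genes held 8 measured probe sets, and COX5b-1, a nuclear subunit, fell in wild-type roots at low against normal zinc (from 10.98 to 10.43, -0.55, SE 0.08, adjusted p = 0.00339 by limma, no overlap), as 1 of 8 called beside 0.132% of all probe sets. It fell in wild-type shoots at low zinc too (-0.45, adjusted p = 0.0386). At excess zinc in wild-type roots, where 9.7% of all probe sets were called, COX5c-3, another subunit, fell by 0.63 (adjusted p = 0.0349) and COX11, an assembly factor that delivers copper, rose by 0.28 (adjusted p = 0.0227). Of the 8 measured genes for complex III and cytochrome c, CYTC-2, 1 of the cytochrome c genes, fell by 0.57 in that comparison (adjusted p = 0.0384), and QCR7-2, a small subunit of complex III, rose by 0.55 in mutant roots at excess zinc (adjusted p = 0.0222). CCMH, the 1 measured nuclear gene of cytochrome c maturation, rose by 0.48 in mutant shoots at excess against normal zinc. Its groups did not overlap (SE 0.11, adjusted p = 0.0279 by limma), and 3.2% of all tested probe sets were called there. This rise of CCMH and the fall of COX5b-1 in roots at low zinc cannot be told apart from the array date. None of the 3 measured nuclear complex I genes (NDUFV2, FRO1 and PSST) was called within a tissue.

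Between tissues the nuclear complex IV genes were split. COX5b-1 was higher in roots in all 6 comparisons, by 0.70 to 0.95, and COX5b-2 by 0.48 to 0.69, whereas COX11 was lower in all 6, by 0.43 to 0.89. Of the 8, 2 to 6 were called higher and 1 lower in each comparison, beside 33.5% to 36.2% higher and 24.3% to 27.9% lower among all tested probe sets. CCMH, the 1 measured nuclear gene of cytochrome c maturation, was higher in roots in all 6, by 0.34 to 1.05, while no more than 2 of the 4 mitochondrial genes of that pathway were called higher in any. The differences of COX5b-1, COX5b-2 and CCMH are all larger than the downward shift by centring. That shift moves those of COX11 further down, so it is no check of their direction.

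Genes of the alternative NADH dehydrogenases, which bypass complex I, were lower in roots where they were called. NDC1 was lower in all 6 comparisons, by up to 1.55. In each, 2 to 5 of the 5 measured genes were called, beside 24.3% to 27.9% of all tested probe sets called lower. Within a tissue, NDB2 was higher at excess zinc in wild-type roots (0.57, SE 0.15, adjusted p = 0.0180 by limma), lower at excess zinc in mutant shoots (-0.60, adjusted p = 0.0263) and higher in mutant than in wild-type shoots at low zinc (0.56, adjusted p = 0.0258), and its tissue by excess zinc interaction in wild type was 0.98 (adjusted p = 0.00484). The fall of NDB2 in mutant shoots and its tissue interaction cannot be told apart from the date in shoots. Of the 5 measured genes for mitochondrial transcription, splicing and RNA decay, none was called within a tissue. PNP, the mitochondrial polynucleotide phosphorylase that degrades RNA, was called higher in roots in 4 of 6 comparisons, by 0.27 to 0.42. NMAT2, a nuclear-encoded maturase, was called lower in 4, by 0.28 to 0.44. UPOX, a marker of mitochondrial stress and the 1 of 4 retrograde response genes measured, was not called for zinc or genotype. It came near in shoots at low zinc, mutant against wild type (-0.65, adjusted p = 0.0534 by limma, overlapping groups, 5.88% of all called). In mutant shoots at excess against normal zinc it differed by 0.69 (adjusted p = 0.0585, no overlap, 3.2% called), which cannot be told apart from the date. Between tissues it was called lower in roots except in the mutant at low zinc.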

How the data were processed

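RNA of 42 samples was hybridised to 1 Affymetrix ATH1 array each, per the labels. The authors deposited 1 log2 value per probe set, and the submitters' processing notes name RMA and limma without versions. The annotation build is not stated there. These log2 values were used as they stand, and the raw intensities were not. The 64 Affymetrix control probe sets served as quality controls, and 22746 were tested with no filter on low values. Names came from the platform annotation and RefSeq's TAIR10.1 gene table (names only).

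Two-sided tests came from limma 3.58.1 (R 4.3.3; lmFit, then contrasts.fit and eBayes), with roots and shoots fitted apart and the tissues compared in 1 fit of 42 arrays. p-values were adjusted by the Benjamini-Hochberg method over all tested probe sets and called under 0.05. The script was tested on simulated data. The genes, lists, comparisons and alternatives were chosen with earlier results of these data known, and the set shared with chromosome 2 loci was added afterwards. Named were up to 10 called members per direction and comparison (otherwise the 2 of lowest p), the brightest of each role, genes with several probe sets, and up to 4 of each other list; nad7 in the mutant at normal zinc, PSAN, CHLM, and the ranges of COX5b-1, COX5b-2, COX11, CCMH, NDC1, PNP and NMAT2 were added to show a pattern. A fold was written as at least that size where the lower mean was no higher than 4.92. Python 3.11.15 with pandas 2.3.3, numpy 2.4.6 and matplotlib 3.10.9 made the tables and plots. Alternatives left out arrays, filtered dim probe sets, centred the arrays, added the actin or GAPDH control or a replicate block, or fitted only the groups compared or 1 date.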

Additional observations from a re-analysis of the deposited data

Results flagged for a closer look

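Among the root groups of 4 arrays, 9 values of the mitochondria-encoded probe sets lay far enough from the other 3 to pass Dixon's test at its 95% critical value, of 138 groups tested; chance gives about 1 in 20, and shoot groups of 3 were not tested. 5 of the 9 came from replicate 2 of the mutant roots at excess zinc: ccb203 at 6.44 (others 6.14 to 6.17), cox2 at 5.83 (5.55 to 5.58), nad1 probe set e at 6.04 (5.63 to 5.70), nad1 probe set f at 5.26 (4.88 to 4.90) and nad1 probe set g at 5.83 (5.47 to 5.48). The others lay on 4 arrays. nad4L read 5.26 in replicate 1 of wild-type roots at low zinc (others 5.40 to 5.41). nad9 read 6.10 in replicate 1 of mutant roots at low zinc (5.42 to 5.51). ccb206 read 5.61 in replicate 4 of wild-type roots at normal zinc (5.90 to 5.95). nad5 probe set b read 5.66 in replicate 1 of mutant roots at normal zinc (5.39 to 5.42).

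The tissue by excess zinc interaction of ccb452 in wild type was 0.67 on the log2 scale (adjusted p = 0.0420 by limma). The call was lost without each of 9 arrays in turn and with the actin covariate. The root arrays behind it share a date, whereas the shoot arrays at excess and normal zinc do not, so the interaction cannot be told apart from the date in shoots.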

How the results depend on the processing

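No result changed direction with a call under any alternative. With 1 array left out in turn, the numbers of called probe sets ran from 0 to 1 for wild-type roots at excess against normal zinc (0 without replicate 4 at normal or replicate 3 at excess zinc) and for the tissue by excess zinc interaction in wild type (0 without root replicates 2 or 4 at normal or 3 or 4 at excess zinc, or shoot replicates 1 or 2 at normal or 1, 2 or 3 at excess zinc). Between tissues they ran from 3 to 6 (wild type, normal zinc; 3 without root replicate 2), 3 to 8 (wild type, excess; 3 without shoot replicate 2), 1 to 3 (mutant, low; 1 without shoot replicate 3), 6 to 11 (mutant, normal; 6 without shoot replicate 2) and 1 to 5 (mutant, excess; 1 without root replicates 1, 3 or 4 or shoot replicate 3). Centring the arrays gave 10, 11, 11, 8 and 9 between tissues in wild type at low, normal and excess zinc and the mutant at low and excess zinc. An adjusted p under 0.01 left 1, 2 and 3 in wild type and 1, 6 and 0 in the mutant, and 0 in roots at excess zinc and in the tissue by excess zinc interaction. The filter on dim probe sets tests 10 members, and lets 3 of them (ccb206 and nad1 probe sets b and g) pass through a shoot group alone. Of these 10 it left 3 (wild type, normal), 0 (mutant, low) and 6 (mutant, normal). Of the 16300 probe sets tested with it, 74.6%, 75.0% and 76.1% were called in those comparisons. Fits of only the groups compared gave 0 for roots at excess zinc, 1 for the mutant tissues at excess zinc and 0 for the interaction; the actin covariate gave 0 for the interaction. Without the 3 arrays that stood apart, an alternative chosen after seeing the data, 5 were called in the mutant tissues at low and at excess zinc. Of all tested probe sets, 64.9% and 60.4% were called there. The GAPDH covariate, also chosen after seeing the data, left 1 between tissues at low zinc in wild type and 1 in the mutant. The cause of these changes was not tested beyond what the alternatives' own construction shows. In all, 196 of 220 counts under these alternatives and 694 of 714 with 1 array left out stayed within 1.5 times.

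Same-numbered arrays' deviations correlated from -0.45 to 0.50 in roots (60 pairs) and from -0.27 to 0.41 in shoots (45 pairs). Between the tissues of a treatment they correlated from -0.10 to 0.13 (18 pairs), so replicate numbers showed no pairing common to all groups. Wild-type and mutant roots at normal zinc were positive in every same-numbered pair (0.50, 0.28, 0.20 and 0.23). A pairing of these groups alone was not fitted. The replicate block kept every count within 1.5 times, and ccb452 in wild-type roots at 0.52.

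Array number limits the precision, and 3 probe sets lay near background in every group.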
